A study of Saccharomyces cerevisiae with 2 samples.

Results

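Oxidative phosphorylation is the process by which mitochondria oxidise substrates and make ATP. Of the 6698 ORFs for which reads were counted, 38 encode nuclear subunits of this machinery: 4 of complex II, 9 of complex III, 2 cytochromes c, 9 of complex IV and 14 of complex V. They were chosen by gene name, and all 38 passed the low-read filter, a log2 read number above 6 in at least 1 library, as did 6246 ORFs in all. The RNA was bound to Cbc2, a subunit of the nuclear cap binding complex, and came from SK1 diploids after 6 h of meiosis. The mutant was trf4Δ, in which both copies of TRF4 were replaced by NatMX6, and it was set against wild type (WT). Both groups carried CBC2-TAP, in which Cbc2 has the affinity tag used to purify it. Both were grown in acetate medium (YPA) before transfer to sporulation medium, which also holds potassium acetate, although trf4Δ cells had been diluted into YPA at the higher density. TRF4 encodes the poly(A) polymerase of TRAMP, a nuclear complex that prepares RNA such as cryptic unstable transcripts (CUTs) for degradation by the exosome. The study asked which RNAs accumulate in meiotic cells without it.

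There was 1 library per genotype, so no difference has a replicate check and no p-value is given. Intervals are at 95% and cover counting error only, and PCR copies are not independent molecules. Each library had its own sequencing lane, so an effect of lane cannot be told apart from one of genotype. The segments of 100 bp that tile the genome held 29687088 reads in trf4Δ and 22092372 in WT, of which ORF reads came to 36.9% in trf4Δ and 52.6% in WT. The deleted gene, listed as PAP2, had 1 read in trf4Δ and 346 in WT, at least 155-fold lower after scaling against a floor of 3 reads. WT reads are given below after multiplication by 1.34, which brings both libraries to the same total. A lower number of reads can mean less of an mRNA in the cells, less of it on Cbc2 or a smaller share of a library richer in other RNA, and these cannot be told apart. All 9 meiotic markers passed the filter, with a median log2 difference of -1.25. All 7 markers of haploid cells, which should be absent from diploids, passed it too, with a median of -0.97. The median log2 scaled reads in WT were 12.2 for the meiotic and 8.67 for the haploid markers. MFA1, a haploid marker, had 750 reads in trf4Δ and 3453 scaled reads in WT.

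Budding yeast lacks the proton-pumping NADH dehydrogenase of other eukaryotes. Electrons from succinate enter through complex II, those from NADH through single-protein dehydrogenases, and both pass through ubiquinol, complex III and cytochrome c to complex IV. The proton gradient built by complexes III and IV drives complex V, the ATP synthase. Acetate can be used for energy only by respiration, and sporulation of yeast requires it. Most of the nuclear genes are activated in respiratory media by the Hap2/3/4/5 complex, which binds CCAAT boxes in promoters.

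The members differed in whether and where reads were gained in trf4Δ, and 4 promoters and 1 ORF end show the kinds seen. The letters are from R64, the S288C reference in RefSeq, not from SK1. CYC1 (chrX:526085-526384, plus strand) gained reads mainly from 28 to 227 bases before its ORF and across its start. ATP16 (chrIV:442779-443078, plus strand) gained reads upstream while its ORF lost them, COX8 (chrXII:909916-910215, minus strand) lost reads and had no gain upstream, and COX5B (chrIX:154972-155271, plus strand) is the isoform gene that lost fewest reads in complex IV. Each of these windows runs from 250 bases before the ORF to 50 bases into it. QCR2 gained reads at the end of its ORF, and its last 300 bases (chrXVI:920188-920487, plus strand) are given. Capitals mark CCAAT or its reverse complement ATTGG in the promoter windows.
CYC1: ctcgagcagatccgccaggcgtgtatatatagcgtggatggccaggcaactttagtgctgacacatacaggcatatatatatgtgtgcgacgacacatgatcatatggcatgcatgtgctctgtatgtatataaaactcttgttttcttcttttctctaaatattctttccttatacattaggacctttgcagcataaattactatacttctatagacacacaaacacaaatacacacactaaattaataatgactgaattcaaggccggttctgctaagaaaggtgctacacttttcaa
ATP16: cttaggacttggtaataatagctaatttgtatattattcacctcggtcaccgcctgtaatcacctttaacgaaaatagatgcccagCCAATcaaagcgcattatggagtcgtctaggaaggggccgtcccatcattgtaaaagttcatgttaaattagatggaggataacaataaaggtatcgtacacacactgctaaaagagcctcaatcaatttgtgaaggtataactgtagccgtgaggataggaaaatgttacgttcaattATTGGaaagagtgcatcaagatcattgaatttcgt
COX8: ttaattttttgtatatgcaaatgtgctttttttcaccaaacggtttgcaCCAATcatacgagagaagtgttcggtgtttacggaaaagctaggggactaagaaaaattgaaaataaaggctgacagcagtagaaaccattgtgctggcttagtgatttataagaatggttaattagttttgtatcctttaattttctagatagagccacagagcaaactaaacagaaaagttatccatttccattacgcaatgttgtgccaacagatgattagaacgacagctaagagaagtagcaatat
COX5B: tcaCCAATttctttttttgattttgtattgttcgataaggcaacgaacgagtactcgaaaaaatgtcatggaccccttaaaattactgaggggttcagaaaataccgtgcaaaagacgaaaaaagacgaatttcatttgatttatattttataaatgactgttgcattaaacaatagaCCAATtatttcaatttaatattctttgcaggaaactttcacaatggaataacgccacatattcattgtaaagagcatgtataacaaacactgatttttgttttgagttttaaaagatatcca
QCR2: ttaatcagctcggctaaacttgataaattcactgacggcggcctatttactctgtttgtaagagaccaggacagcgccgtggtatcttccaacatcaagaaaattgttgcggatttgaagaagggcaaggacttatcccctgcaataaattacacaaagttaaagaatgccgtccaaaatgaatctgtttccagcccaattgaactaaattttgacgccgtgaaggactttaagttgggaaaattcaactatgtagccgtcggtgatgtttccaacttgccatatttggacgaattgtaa

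Nearly all of the mRNAs of oxidative phosphorylation had fewer reads in trf4Δ. The log2 difference, trf4Δ minus scaled WT, had a median of -2.15 over the 38 members and of -0.97 over all ORFs. Of the 38 members, 36 were below 0, and 2, QCR2 and CYC1, were above it, against 28.0% of all ORFs. More than 2-fold lower in trf4Δ were 35 members, where 49.0% of all ORFs were. More than 4-fold lower were 23 members, where 10.6% of all ORFs were, and none was more than 4-fold higher, where 8.09% of all ORFs were. The quartiles of the members were -2.45 and -1.78, and those of all ORFs -1.62 and 0.18. SDH4, ATP2, QCR8 and QCR6 were within 0.05 of the 4-fold line: SDH4 at -2.02 and ATP2 at -2.01 passed it, whereas QCR8 at -1.97 and QCR6 at -1.96 did not.

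The shift of the typical ORF is part of these values, and the 4-fold counts depend on it. When the median of all ORFs was set to 0, no member was more than 4-fold lower, as 0.192% of all ORFs were, and 2 were more than 4-fold higher, as 15.1% of all ORFs were. On that scale 23 members were still more than 2-fold lower, against 11.6% of all ORFs, and the median of the members was -1.18. The order of the genes does not change with the scale, and 36 of the 38 members fell below the median of all ORFs, which by definition has 50.0% below it. As a share of the reads on ORFs, the members took 1.30% in trf4Δ (Wilson interval 1.30 to 1.31%) and 3.36% in WT (3.35 to 3.37%). Without SDH4, the member with most reads, the shares were 1.04% in trf4Δ and 2.62% in WT.

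**Figure D1:**
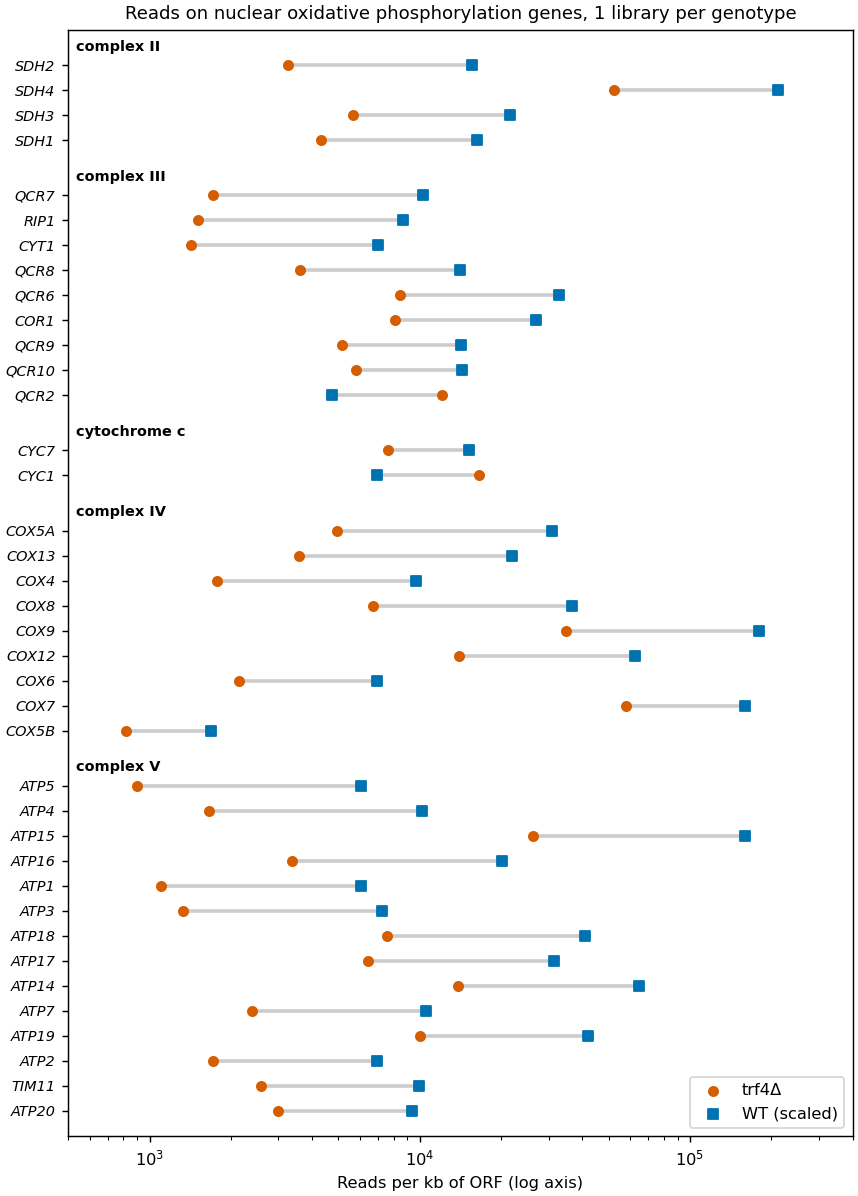
Reads per kb of ORF (log axis) of each of the 38 members, by complex and ordered by log2 difference, in the trf4Δ library (circles) and in the WT library after scaling (squares), with 1 library each. The trf4Δ point is left of the WT point in 36 rows, and right of it for QCR2 and CYC1.

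**Figure D2:**
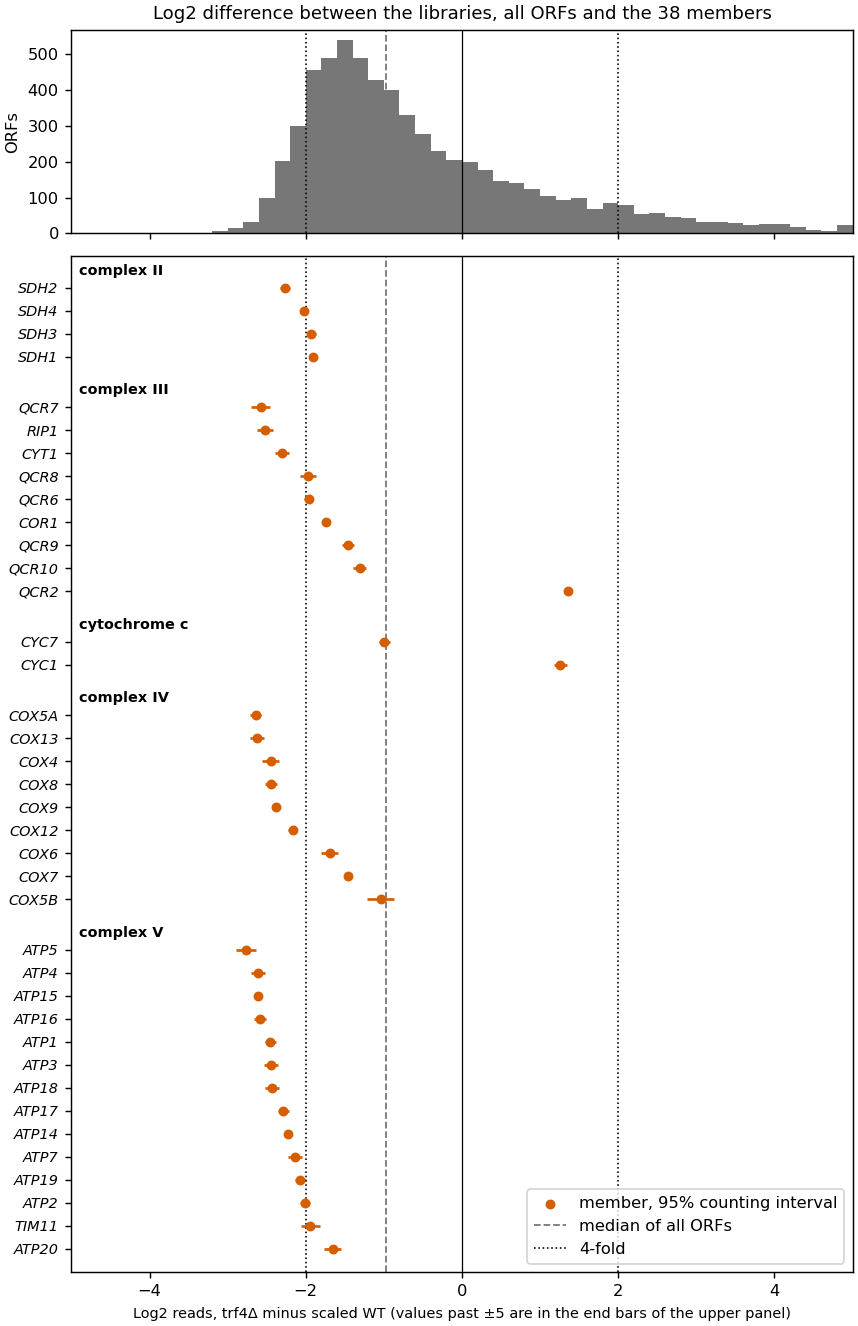
Log2 difference, trf4Δ minus scaled WT, as a histogram over 6246 ORFs (upper panel) and for each member with its 95% counting interval (lower panel). The dashed line is the median of all ORFs, -0.97, and dotted lines mark 4-fold, past which 23 members lie on the lower side and none on the higher.

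The members were also lower than ORFs of similar level or length. By mean level in the libraries, 20 members were in the highest 10% of ORFs. The median of those 20 was -2.12, where the 625 ORFs of that class had -1.28, and 13 of the 20 were more than 4-fold lower, where 22.6% of the class were. The 11 members in the class below had a median of -2.30, where the class had -0.81. Many subunits are small proteins, and the 27 members with an ORF of up to 600 bp had a median of -2.07, where all ORFs of that length had -1.08. The 11 longer ones had -2.30, where all longer ORFs had -0.94.

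Complex II, succinate dehydrogenase, also belongs to the citric acid cycle. Its 4 subunits had log2 differences close to each other, with a median of -1.97 and a range from SDH2 (-2.27) to SDH1 (-1.91). Of the 4, 2 were more than 4-fold lower, where 10.6% of all ORFs were. SDH2, the iron-sulphur subunit, had 2598 reads in trf4Δ and 12506 scaled reads in WT, and SDH1, the flavoprotein subunit that oxidises succinate, had 8294 in trf4Δ and 31239 in WT. SDH4, a membrane anchor, had 28519 reads in trf4Δ and 115386 scaled reads in WT, more than any other member in either library. It took 20.0% of all reads on the members in trf4Δ and 22.0% in WT. Per length its level, 52233 reads per kb in trf4Δ and 211330 in WT, was the highest of the 38 in WT and next to COX7 in trf4Δ. SDH3, the other anchor, had a log2 difference of -1.93.

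Complex III passes electrons from ubiquinol to cytochrome c, and its members spread most, from QCR7 at -2.58 to QCR2 at 1.36, around a median of -1.96. Its redox subunits with nuclear genes were lower together: RIP1, the Rieske iron-sulphur protein, at -2.52 and CYT1, cytochrome c1, at -2.30. RIP1 had 981 reads in trf4Δ and 5614 scaled reads in WT, and CYT1 had 1327 in trf4Δ and 6541 in WT. With QCR7, at 659 reads in trf4Δ and 3936 in WT, they were the 3 of 9 more than 4-fold lower, where 10.6% of all ORFs were. Of the smaller subunits, QCR8 (-1.97) and QCR6 (-1.96) lay at the line, and QCR9 (-1.46) and QCR10 (-1.31) above it. The core proteins went apart. COR1 had 11103 reads in trf4Δ and 37122 scaled reads in WT, a log2 difference of -1.74, whereas QCR2, its partner in the core, had 13433 in trf4Δ and 5239 in WT (1.36, interval 1.31 to 1.41).

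The gain at QCR2 was largest at the end of the gene. QCR2 (YPR191W) has an ORF of 1107 bp on chromosome XVI, from 919377 to 920483 on the plus strand in the coordinates of the files, which follow SGD1.01. Its first 3 whole segments held 844 reads in trf4Δ and 1841 normalised reads in WT, a log2 difference of -1.12 (interval -1.25 to -1.0), and the segment across the ORF start had -1.93. Counts of the last 3 segments of the ORF, bases 824 to 1123 from its start, summed to 13837 in trf4Δ and 2006 in WT. The log2 difference was 2.79 (2.71 to 2.86). The trf4Δ sum is above the 13433 reads of the whole ORF. A read can count in more than 1 segment, and the last of these segments runs past the ORF. The segment after these 3 had 2270 reads in trf4Δ and 216 in WT. Smaller gains lay on both sides, with 1008 reads in trf4Δ and 404 in WT at bases 724 to 823, and log2 differences of 0.84 to 1.81 in the next 6 segments downstream. Over the 8 whole segments that were not called, the difference was -0.19 (interval -0.26 to -0.13). The start of the ORF was lower in trf4Δ, with -1.83 at bases 24 to 123 and -0.50 at bases 224 to 323. In the first 100 bp of the ORF, the median was -2.17 over the members and -1.27 over all ORFs. The value above 0 for the whole ORF came from its end. Nothing stated says that reads were counted by strand, so the RNA at this end may come from either strand.

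Cytochrome c carries electrons between complexes III and IV, and yeast has a pair of isoforms: CYC1, the main one in aerobic cells, and CYC7, which is better known from cells short of oxygen. CYC7 had 2607 reads in trf4Δ and 5189 scaled reads in WT, a log2 difference of -0.99, close to the typical ORF. CYC1 had 5468 reads in trf4Δ and 2285 in WT, a log2 difference of 1.26 (interval 1.18 to 1.34). Per kb, CYC1 had 2.17 times the reads of CYC7 in trf4Δ (interval 2.07 to 2.28) and 0.456 times in WT (0.431 to 0.483), so the order of the isoforms was opposite in the libraries.

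The CYC1 gain was largest before the ORF (YJR048W, chromosome X, 526328 to 526657, plus strand in the coordinates of the files) and faded along it. From 28 to 227 bases before its start, 2 segments held 11087 reads in trf4Δ and 165 normalised reads in WT, 67.1-fold more in trf4Δ. The segment across the start held 5244 in trf4Δ and 868 in WT, and the 2 whole segments after it 2754 in trf4Δ and 1747 in WT (log2 difference 0.66). At the end of the ORF, bases 273 to 372, there were 429 reads in trf4Δ and 551 in WT, a difference of -0.36. WT reads, by contrast, were highest inside the ORF. The isoform ratio includes the segment across the start, and when only whole segments inside the ORFs were used, its log2 change fell to 1.44, against 2.25 from the ORF reads. The part of it due to CYC1 mRNA was not tested.

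**Figure D3:**
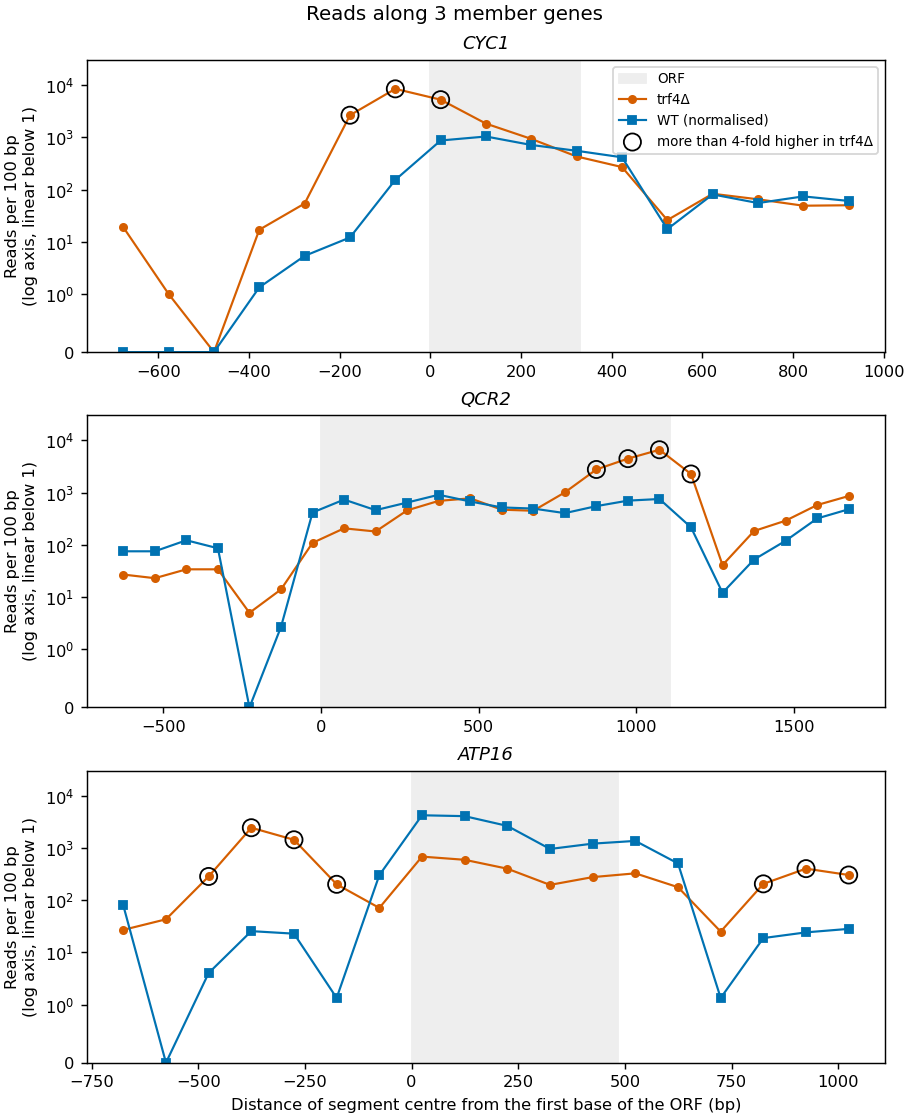
Reads per 100 bp segment in trf4Δ (circles) and normalised WT (squares) along CYC1, QCR2 and ATP16, against the distance of the segment's centre from the first base of the ORF (vertical log axis, linear below 1). Grey marks the ORF, and rings mark segments called higher in trf4Δ (at least 64 reads and more than 4-fold above WT), which lie over the CYC1 start, over the QCR2 end and on both sides of the ATP16 ORF.

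Complex IV, cytochrome c oxidase, transfers electrons to oxygen. All 9 of its nuclear subunits were lower in trf4Δ, with a median of -2.38. More than 4-fold lower, where 10.6% of all ORFs were, were 6: COX5A, COX13, COX4, COX8, COX9 and COX12. COX6 (-1.69), COX7 (-1.46) and COX5B (-1.04) did not. The small subunits COX9 and COX7 had among the highest levels per length of all members. COX9 had 34756 reads per kb in trf4Δ and 180887 scaled reads per kb in WT, and COX7 had 58006 in trf4Δ and 159867 in WT. COX7 was thus the higher in trf4Δ and COX9 in WT. COX13 had 1395 reads in trf4Δ and 8593 in WT (-2.62).

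Subunit V of complex IV is made as COX5A in aerobic cells and as COX5B when oxygen is short, and only one of them is in a given enzyme. COX5A had 2288 reads in trf4Δ and 14290 scaled reads in WT, a log2 difference of -2.64 (interval -2.71 to -2.58). COX5B had 447 reads in trf4Δ and 921 in WT, a difference of -1.04 (-1.22 to -0.87), and the lowest level per length of all members in both libraries, 822 reads per kb in trf4Δ and 1693 in WT. Per kb, COX5A exceeded COX5B 6.03-fold in trf4Δ (5.44 to 6.68) and 18.3-fold in WT (16.9 to 19.8), a log2 change of the ratio of -1.60. Neither ORF held a called segment. In both isoform pairs the gene known from low oxygen was close to the typical ORF.

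Complex V was lower throughout. All 14 members were lower in trf4Δ, from ATP5 at -2.76 to ATP20 at -1.65, with a median of -2.36. Of them, 12 were more than 4-fold lower, where 10.6% of all ORFs were. ATP5, which holds the catalytic head to the stator stalk, had 572 reads in trf4Δ and 3885 scaled reads in WT, the lowest log2 difference of the 38. The 5 subunits of the catalytic F1 head were all past 4-fold: ATP15 at -2.61, ATP16 at -2.59, ATP1 at -2.45, ATP3 at -2.45 and ATP2 at -2.01. ATP15, the small subunit epsilon, had 4955 reads in trf4Δ and 30321 in WT. ATP1, the alpha subunit, was among the lowest per length in trf4Δ, with 1104 reads per kb, against 6041 in WT, as was ATP5 with 895 in trf4Δ and 6080 in WT. ATP4, of the stator stalk, had 1220 reads in trf4Δ and 7474 in WT (-2.61). ATP7, ATP14, ATP17, ATP18 and ATP19 of the membrane sector and stalk lay between -2.43 and -2.07. The members that missed 4-fold, TIM11 (-1.94) and ATP20 (-1.65), encode subunits e and g, which join the enzyme into dimers. ATP20 had 1038 reads in trf4Δ and 3266 in WT. ATP1 and ATP14 share bases with another ORF of the table (YBL100C and YLR294C), whose reads cannot be told from theirs.

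Of the members, 3 have an intron in R64, and these were among the least reduced: COX5B, QCR10 and QCR9, with a median of -1.31, against -2.23 for the 35 others. Over all ORFs the only split made was by the number of parts of the coding sequence in R64. The median was -0.99 for 271 ORFs with more than 1 part and -0.98 for those with 1 part. That the parts of all 271 are separated by introns was not checked. Segments over the intron were compared with segments over the last exon, a comparison chosen after the values had been seen. Where segments were summed, a read could count in more than 1 of them, so those intervals are too narrow. In QCR9, which has an intron of 213 bp, the intron had 1389 reads in trf4Δ, against 2905 in WT after normalisation, a log2 difference of -1.06 (interval -1.16 to -0.97). The last exon of QCR9 had 1253 in trf4Δ and 3589 in WT, -1.52 (-1.62 to -1.42). In QCR10 the segment over the intron had -0.45 (-0.69 to -0.21) and the last exon -1.49 (-1.57 to -1.41). In COX5B the intron was at -0.55 and the last exon at -1.10, with intervals that overlap, since only 58 reads in trf4Δ and 63 unscaled reads in WT covered the intron. The same direction was common elsewhere: among 210 ORFs with reads in both, the intron had the higher log2 difference in 172 (81.9%), with medians of -0.25 over introns and -1.30 over last exons. The exons of all 3 members were also less reduced than the median member.

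Upstream of the members the libraries differed in the opposite direction. A segment of at least 64 reads in trf4Δ and more than 4-fold above WT lay within 500 bp upstream of 20 of the 38 members, where 31.4% of all ORFs had one. Inside the ORF only CYC1 and QCR2 had one, where 22.2% of all ORFs did. Among ORFs without one inside, the median was -2.20 over 36 members and -1.29 over 4858 ORFs. More than 4-fold lower were 23 of those 36 members and 659 of those 4858 ORFs. Of the 4858, 502 were above 0, and none of the 36 members was. Downstream, 7 members had a called segment within 500 bp, where 19.3% of all ORFs did. Gains wholly near the start were fewer: only 4 members had a called segment that lay entirely within 300 bp upstream, where 18.5% of all ORFs did. Called segments of some other members reached into those 300 bp, as at ATP14 from 226 bases before the start. The median over member segments at 300 to 400 bp before the start was 2.33, where that over all ORFs was 0.12, and in the last 100 bp before the start it was -1.70, where all ORFs had -0.80. Within the first 100 bp of the ORF the members had -2.17 and all ORFs -1.27. All ORFs had their highest median, 0.50, at 100 to 200 bp before the start, where the members had -0.14. There 27 member segments and 3952 segments of all ORFs passed the minimum. A segment with few WT reads passed only if its trf4Δ reads were high, which raises such medians.

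**Figure D4:**
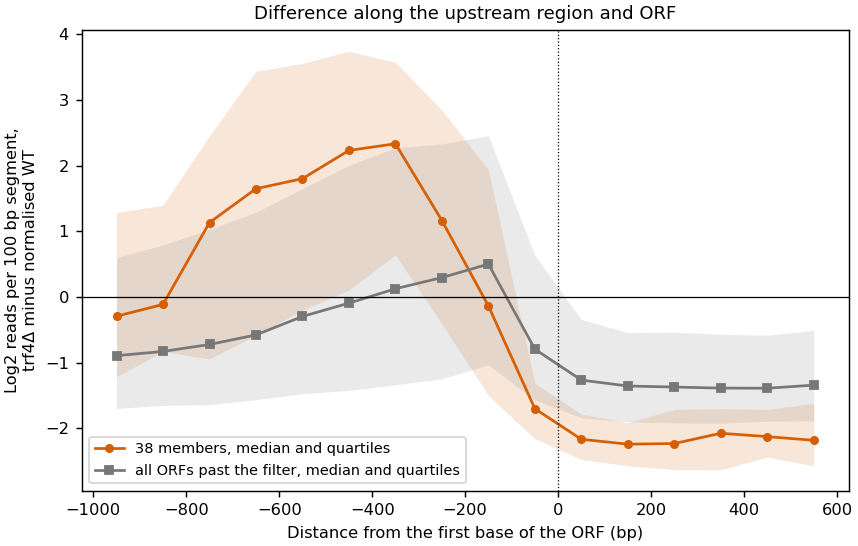
Median (line) and quartiles (shading) of the log2 difference per 100 bp segment, trf4Δ minus normalised WT, against the distance from the first base of the ORF, for the 38 members and for all ORFs past the filter. The members' median is 2.33 at 300 to 400 bp upstream and -2.17 in the first 100 bp of the ORF.

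Members with and without an upstream gain were about equally low. The 20 members with one had a median of -2.12 and the 18 without one -2.20. At ATP16, subunit delta of the F1 head, 3 segments from 126 to 425 bp upstream held 4063 reads in trf4Δ and 49.7 normalised reads in WT, 81.7-fold more in trf4Δ, while the ORF had 1625 reads in trf4Δ and 9761 in WT. ATP15 had 9269 upstream reads in trf4Δ and 605 in WT. ATP14 had 1677 in trf4Δ and 51.1 in WT, 32.8-fold more in trf4Δ. All 3 ORFs were more than 4-fold lower nonetheless. ATP5, with the lowest log2 difference of all, had 1071 upstream reads in trf4Δ and 60.5 in WT.

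A called segment upstream lay outside every other ORF in 10 of the 38 members (26.3%), a share near that of all ORFs, 23.8%. In 11 members, SDH4 counting under both, called segments overlapped a neighbouring ORF, and in all 11 this neighbour was on the strand of the member. These counts were not made over all ORFs, so neither can be called particular to the members. In these 11 the gain lay towards the end of the gene before the member. ATP20, behind MCM4, had 7844 such reads in trf4Δ and 216 in WT, and ATP19, behind AVO1, had 6769 in trf4Δ and 167 in WT, 40.6-fold more in trf4Δ. QCR7, behind APA2, had 5522 in trf4Δ and 517 in WT, and COX6, behind SMF2, had 2220 in trf4Δ and 209.6 in WT. For the remaining called members with a neighbour there (ATP2, ATP17, COX5A, COX12, QCR8, SDH4 and TIM11) the upstream gain was between 4.23-fold and 14.1-fold. The other called members were ATP4 (12.7-fold), COX7 (8.80-fold), COX13 (4.01-fold) and QCR9 (9.14-fold). Beyond the ORF end, the members' median was -1.50 in the first 100 bp and -0.72 in the next, where all ORFs had -0.23 and -0.17. The same minimum of 16 reads in either library applied to these segments.

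The promoters of the members shared CCAAT boxes. In the window of 250 bases before to 50 after the start, searched on both strands, CCAAT occurred in 32 of 38 members (84.2%), where it occurred in 43.3% of 6007 R64 genes. The longer form ACCAATNA, which contains CCAAT, was found in 15 members (39.5%), where 5.74% of all genes had it. ATTGTT, found in 15 members (39.5%), and TATAAA, found in 16 (42.1%), were in 35.2% and 45.2% of all genes. In the sequences above, ATP16 has CCAAT at 164 bases before the start and ATTGG just inside the ORF, COX8 has ACCAATCA at 202 bases before it, and COX5B has CCAAT at 247 and 72 bases before it. The window of CYC1 has no CCAAT and holds TATAAA at 121 bases before the start. These are matches of letters in S288C, not sites shown to be bound.

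The remainder of the respiratory system was less reduced than the subunits. The 116 other nuclear genes, in 7 lists, had a median of -1.15, with 19 more than 4-fold lower, where 10.6% of all ORFs were, and 8 more than 4-fold higher, where 8.09% were. This balance depends on the scaling: with the median of all ORFs at 0, the counts were 0 lower and 18 higher, where 0.192% and 15.1% of all ORFs were. Nearest to the subunits were 7 paralogues and inhibitors of the complexes (median -1.84, 2 lower) and 12 citric acid cycle genes (-1.78, 3 lower), with none more than 4-fold higher. INH1, which inhibits ATP hydrolysis by complex V, had 2813 reads in trf4Δ and 18805 scaled reads in WT (-2.74), while YJL045W, a minor relative of SDH1, had 10033 in trf4Δ and 4162 in WT (1.27). In the cycle, LSC1, a subunit of succinyl-CoA ligase, had -2.54 and IDH2, of isocitrate dehydrogenase, -0.42.

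Assembly factors were near the typical ORF. Over all ORFs, 10.6% were more than 4-fold lower and 8.09% more than 4-fold higher. Counts near these shares show nothing particular to a list. The 45 genes had a median of -0.96, with 7 more than 4-fold lower and 1 higher. They ranged from COX14 (-2.60), needed for complex IV, to TCM62 (2.25), needed for complex II. The 23 genes for expression of mitochondrial mRNAs had a median of -1.01, with 3 lower and 4 higher, from the RNA helicase MSS116 (-2.40) to MRS1 (3.75), a splicing factor of mitochondrial introns. The 12 carriers had a median of -0.73, with 3 lower and 3 higher. MIR1, the phosphate carrier, had 2753 reads in trf4Δ and 14593 in WT, while ODC2, the oxodicarboxylate carrier, had 16246 in trf4Δ and 871 in WT (4.22). The 7 single-protein NADH dehydrogenases and lactate or glycerol phosphate dehydrogenases had a median of -0.90, from DLD1 (-1.89) to CYB2 (0.71), with none past 4-fold.

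Among 10 regulators of respiratory genes, with a median of -1.32, the subunits of the CCAAT-binding complex went apart. HAP3 had 338 reads in trf4Δ and 1545 scaled reads in WT (-2.19). It was the 1 regulator of 10 more than 4-fold lower, a share near the 10.6% of all ORFs. HAP2 had 2818 in trf4Δ and 764 in WT (1.88). HAP4, the activating subunit, was at -1.70 and HAP5 at 0.64, and these were named after their values had been seen.

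Subunits encoded in mitochondrial DNA, whose RNA has no cap, did not follow the nuclear ones. Of 7 genes, 5 passed the filter, with a median of 0.65 and none past 4-fold. COX1 had 1891 reads in trf4Δ and 1209 scaled reads in WT, COX3 had 113 in trf4Δ and 48.4 in WT (1.22), and OLI1 had 323 in trf4Δ and 407 in WT (-0.34). COB, for cytochrome b, the redox subunit of complex III not encoded in the nucleus, had 169 in trf4Δ and 72.6 in WT (1.22). ATP6, with 27 reads in trf4Δ and 1 unscaled read in WT, and ATP8, with 2 in trf4Δ and 4 in WT, were below the filter.

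**Figure D5:**
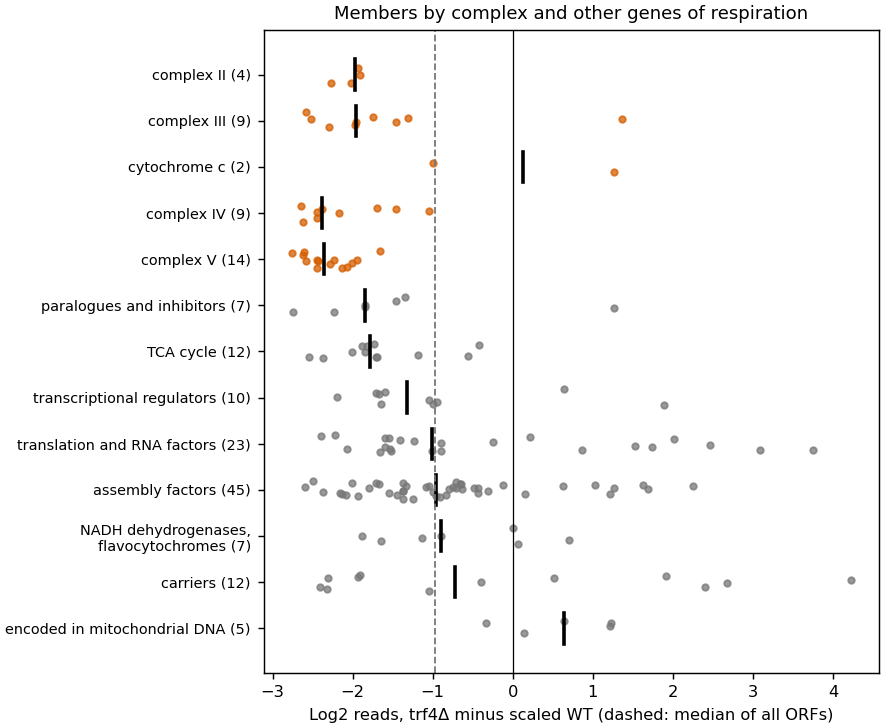
Log2 difference, trf4Δ minus scaled WT, of each gene past the filter (points) and the median (bars) for the 5 groups of members and for 8 other lists, with the number of genes in parentheses. The dashed line is the median of all ORFs, -0.97; medians of complexes II to V lie between -2.38 and -1.96, and those of the other nuclear lists between -1.84 and -0.73.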

How the data were processed

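Reads had been trimmed with Trim Galore 0.3.5 and mapped with Bowtie 0.12.7, per the labels, to SGD1.01 (unique reads only) or to a genome assembled for SK1 (repeated reads assigned randomly). The tables do not name the mapping. The authors summed reads in SeqMonk and deposited log2 values for 100 bp segments and for ORFs. Undoing the log2 step gave whole reads for 100% of ORF values (tolerance 0.001), with 0.9 in place of 0. In the ORF table the authors had multiplied WT by 1.345. Segments of the 37S pre-rRNA were left out, and WT segments were multiplied by 1.344.

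ORFs with a log2 read number above 6 in either library were compared, and segments were called at 64 reads and more than 4-fold. Ratios have Clopper-Pearson and shares Wilson intervals. With 1 library per genotype nothing was tested. The calls were also run on simulated counts with planted changes well past the threshold and random counting error only. Their recovery says nothing about variation between libraries, PCR copies or reads counted in more than 1 segment. Members and lists were chosen with earlier results of these data known. Named genes were those with the 5 highest and lowest differences, the 3 highest and lowest levels, the isoform pairs, members past a threshold or with called segments, and the extremes of each complex and list. All 177 listed genes were matched by name. Sequences are from R64, where 2 of 16 nuclear chromosomes have the length of the files, so coordinates were never mixed. Alternatives changed scaling, filter, fold, flank and the reads counted. Computations used scipy 1.17.1, pandas 2.3.3 and numpy 2.4.6 under Python 3.11.15, and plots matplotlib 3.10.9.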

Additional observations from a re-analysis of the deposited data

How the results depend on the processing

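No paired analysis was possible because each genotype had 1 library, and for the same reason no replicate could be left out. Of 90 alternative values, 60 stayed within 1.5 times the count or, for log2 medians, within the counting error of a typical member (0.077) and, for isoform ratios and shares, within their own counting error, 29 moved and 1 turned its sign. With the median of all ORFs at 0, 0 members were more than 4-fold lower and 2 higher, and the median log2 difference was -1.18 for all members, -1.001 for complex II, -0.99 for complex III, -1.41 for complex IV, -1.39 for complex V, 1.10 for cytochrome c and -0.18 for the other nuclear genes. U1 snRNA held 21.8% of the summed segment counts in trf4Δ and 15.5% in WT. With totals taken without it, the medians were -2.04, -1.86, -1.85, -2.27, -2.25, 0.25 and -1.04 in the same order. Of the members, 20 remained past 4-fold lower, where 23 had been. At 2-fold, 35 members were lower and 2 higher. With reads of whole segments inside the ORF, which 37 members have, complex II moved to -2.07, the other genes to -1.34, cytochrome c turned to -0.061, where it had been 0.13, and the log2 change of CYC1 over CYC7 to 1.44, while that of COX5A over COX5B was -1.46, where it had been -1.60. Without genes that share bases with another ORF, the other genes moved to -1.24. At 8-fold per segment, 1 member had a called segment in its ORF. Upstream, a flank of 300 bp left 4 members and the exclusion of other ORFs left 10, where 20 had been called. The members' share of reads in trf4Δ divided by that in WT was 0.388 of ORF reads and 0.272 of the summed segment counts. The direction for complexes II to V held under every alternative run.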
